A study of Mus musculus with 41 samples.

Results

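The genes described here are 10 mouse genes for interferon-induced GTPases, chosen by symbol from 24946 genes in the table. They are 5 guanylate-binding protein (GBP) genes, Gbp2, Gbp3, Gbp4, Gbp6 and Gbp7, and 5 immunity-related GTPase (IRG) genes, Irgm1, Irgm2, Igtp, Iigp1 and Tgtp1. A further 16 genes of both families with an entry in the table were looked at beside them.

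RNA came from 3 whole dissected brain regions (cortex, midbrain and cerebellum) of 12-week-old mice of the C57BL/6J strain. The conditional knockout mice (cKO) carry Yy1 alleles that Cre can excise together with Cre under the promoter of Gfap, an astrocyte gene, and the floxed mice carry the excisable Yy1 alleles without Cre. Yy1 encodes a zinc finger transcription factor. Both labelled sexes were used in every group. The comparisons used 5 cKO and 6 floxed libraries of cortex, 7 cKO and 7 floxed libraries of midbrain, and 7 cKO and 7 floxed libraries of cerebellum, from 14 animals that each gave up to 3 regions. Since no mice with Cre but intact Yy1 alleles were included, what Cre does by itself and what loss of Yy1 does cannot be told apart. In whole tissue, more cells of a type and more RNA per cell cannot be told apart either.

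Both families are large GTPases that interferon gamma, and to a lesser degree the type I interferons, switch on in most cell types, microglia and astrocytes included. GBPs and the effector IRGs, here Iigp1 (also Irga6) and Tgtp1 (also Irgb6), gather on the vacuoles of intracellular parasites and bacteria and help to break them. The regulatory IRGs, here Irgm1, Irgm2 and Igtp (also Irgm3), sit on the cell's own membranes and keep the effectors in their inactive form there.

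The promoter sequences are shown because genes of both families are textbook targets of the factors that interferons activate. The type I pathway acts through the interferon-stimulated response element (ISRE), searched here as its core GAAANNGAAA, and interferon gamma through the gamma-activated site (GAS), searched as TTCNNNGAA. RefSeq windows of 300 bases (GRCm38.p6), from 250 before the transcript start to 50 after it, matched 7 of the 10 genes, and Gbp4, Gbp6 and Iigp1 were not analysed in this way. The ISRE core stood in a window of 7 of these 7 genes, against 3.443% of the 32851 windows in the reference table. The GAS stood in 4 of the 7 (Gbp7, Irgm2, Igtp and Tgtp1), against 8.298% of all windows. In Igtp, Irgm2 and Tgtp1 the GAS lay directly before the ISRE core, and the same order was found in Tgtp2, the near copy of Tgtp1. The stretches below run 5′ to 3′ on the strand of the gene, with the motif matches in capitals, and overlapping ISRE matches run together in Irgm1 and Gbp3. The Igtp stretch is chr11:58199491-58199551 (+ strand), Irgm2 chr11:58214882-58214942 (+), Tgtp1 chr11:48992294-48992354 (-), Tgtp2 chr11:49064253-49064313 (-), Irgm1 chr11:48871421-48871470 (-), Gbp2 chr3:142620584-142620633 (+), Gbp3 chr3:142559979-142560034 (+) and Gbp7 chr3:142530210-142530312 (+).
Igtp: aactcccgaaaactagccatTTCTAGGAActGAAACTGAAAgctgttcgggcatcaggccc
Irgm2: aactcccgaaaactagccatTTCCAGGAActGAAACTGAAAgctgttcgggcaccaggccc
Tgtp1: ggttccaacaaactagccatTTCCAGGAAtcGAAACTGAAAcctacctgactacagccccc
Tgtp2: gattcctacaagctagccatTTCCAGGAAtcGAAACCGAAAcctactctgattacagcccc
Irgm1: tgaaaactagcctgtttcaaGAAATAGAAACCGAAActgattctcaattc
Gbp2: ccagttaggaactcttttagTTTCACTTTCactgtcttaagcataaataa
Gbp3: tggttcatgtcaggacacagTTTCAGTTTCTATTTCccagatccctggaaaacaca
Gbp7: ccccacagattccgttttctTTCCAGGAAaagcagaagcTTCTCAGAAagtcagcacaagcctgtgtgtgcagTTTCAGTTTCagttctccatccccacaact

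Of the 61 bases shown, Igtp and Irgm2 shared 59 and Tgtp1 and Tgtp2 shared 47. The ISRE match started 34 bases before the transcript start in Igtp, 64 in Irgm2, 77 in Tgtp1, 59 in Gbp2 and 53 in Gbp7. The 2 overlapping matches started 45 and 39 bases before it in Gbp3, and 30 and 24 bases before it in Irgm1. A second Gbp3 window held none of the motifs. The YY1 site, searched as AANATGGC, was found in 0 of the 7 genes and in 6.052% of all windows, and the NF-kB site, searched as GGGNNTTTCC, in 0 of the 7 and in 1.629% of all windows. All motifs were searched on both strands. A match is a run of letters and not a binding event, and a window without a match says nothing of sites elsewhere.

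Values are called normalised reads here, because the deposited table had been scaled before deposit. Library totals lay between 21.5 and 28.8 M normalised reads (M, mega), and the reads behind them, estimated from the spacing of low values, between 6.81 and 69.5 M. The median estimate was 16.3 M reads in cKO cerebellum and 28.8 M in floxed cerebellum, and 22.7 and 29.2 M in cKO and floxed midbrain. A two-sided exact permutation test of the difference in mean log2 estimated reads gave p = 0.0594 in cerebellum and p = 0.0530 in midbrain. Yy1 itself averaged 1065 ± 99.2 normalised reads in cKO cortex and 1286 ± 119.7 in floxed cortex (SD, n = 5 and 6), and 969.3 ± 53.3 in cKO midbrain and 1147 ± 132.6 in floxed midbrain (SD, n = 7 each). In cerebellum it averaged 566.8 ± 63.6 in cKO and 1059 ± 255.5 in floxed libraries (SD, n = 7 each). Yy1 was lower in cKO tissue in each region, by limma's test over all genes (log2 fold -0.26, -0.24 and -0.86 in cortex, midbrain and cerebellum, adjusted p = 0.0166, 0.0180 and 0.00114).

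Some libraries went against their labels. The animals floxed 5, floxed 6 and cKO 7 are labelled female, but their libraries held Y-linked transcripts and at most 22.1 normalised reads of Xist. Of their 9 libraries, 8 were in the comparisons. In cortex this leaves Xist expression in cKO 5 and cKO 6 and in no floxed library. The library labelled floxed cerebellum 6 held 585.4 normalised reads of Yy1, inside the cKO cerebellum range of 498.8 to 682.6 and below the 881.2 of the next floxed library. Its 10 microglia markers summed to 11520, against 2813 to 3498 in the other floxed cerebellum libraries. The library cKO cerebellum 4 stood out by 5 choroid plexus markers (285528, against 1019 to 149219 in the other cKO cerebellum libraries). The library cKO cerebellum 7 had the lowest depth (6.81 M reads), and its oligodendrocyte markers (518296) were close to those of cKO cerebellum 4 (520562), against 137160 to 218841 in the other cKO libraries of cerebellum. The main results on the 10 genes are given with and without these libraries. Without the library labelled floxed cerebellum 6, Yy1 in cerebellum gave a log2 fold of -0.997.

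The genes differ in how surely reads can be assigned to them, which matters because several have near copies. In GENCODE vM21 on GRCm38, 81.2% of the 50-base windows along Tgtp1 transcripts (chr11:48985327-48994172) also occurred in another gene, mostly Tgtp2 (79.4%). For Gbp6 (chr5:105270702-105293698) the share was 70.7%, with 65.0% shared with the overlapping gene Gm43302, which has no entry in the table, and 45.9% with Gbp10. Tgtp1 and Gbp6 are therefore uncertain as single genes. The share was 12.7% for Gbp7 (chr3:142530342-142550149) and 11.8% for Igtp (chr11:58199556-58207591), which overlaps Irgm2 (chr11:58199618-58222782, 7.8%) on the same strand. It was 7.8% for Gbp4 (chr5:105115767-105139586), which overlaps Gbp8 and Gbp9 on the same strand, and 3.8% or less for Gbp3 (chr3:142560026-142573209), Gbp2 (chr3:142620602-142638008), Iigp1 (chr18:60376027-60392634) and Irgm1 (chr11:48861968-48871683).

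Nearly all of the 10 genes were higher in cKO than in floxed tissue. A gene was called when its Benjamini-Hochberg adjusted p from limma, over all genes tested, was under 0.05. In cortex 8 of the 10 genes were called higher, against 10.5% of all 15731 genes tested. In midbrain 8 of the 10 were called higher, against 8.48% of 15683 genes, and in cerebellum 10 of 10, against 19.4% of 15334 genes. None was called lower by limma in any region, and none had an unadjusted p under 0.05 in that direction. The median log2 fold of the 10 genes was 1.72 in cortex, 1.12 in midbrain and 1.61 in cerebellum, where the medians of all genes tested were -0.007, -0.006 and -0.008. The ratio of the group means ran from 1.01 to 8.93 in cortex, from 0.739 to 6.73 in midbrain and from 1.89 to 4.40 in cerebellum. Gbp3 was at the top of each range. Gbp4 was at the bottom in cortex and midbrain, and Tgtp1 in cerebellum. The 8 genes other than Gbp4 and Tgtp1 were called in all 3 regions.

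**Figure D1:**
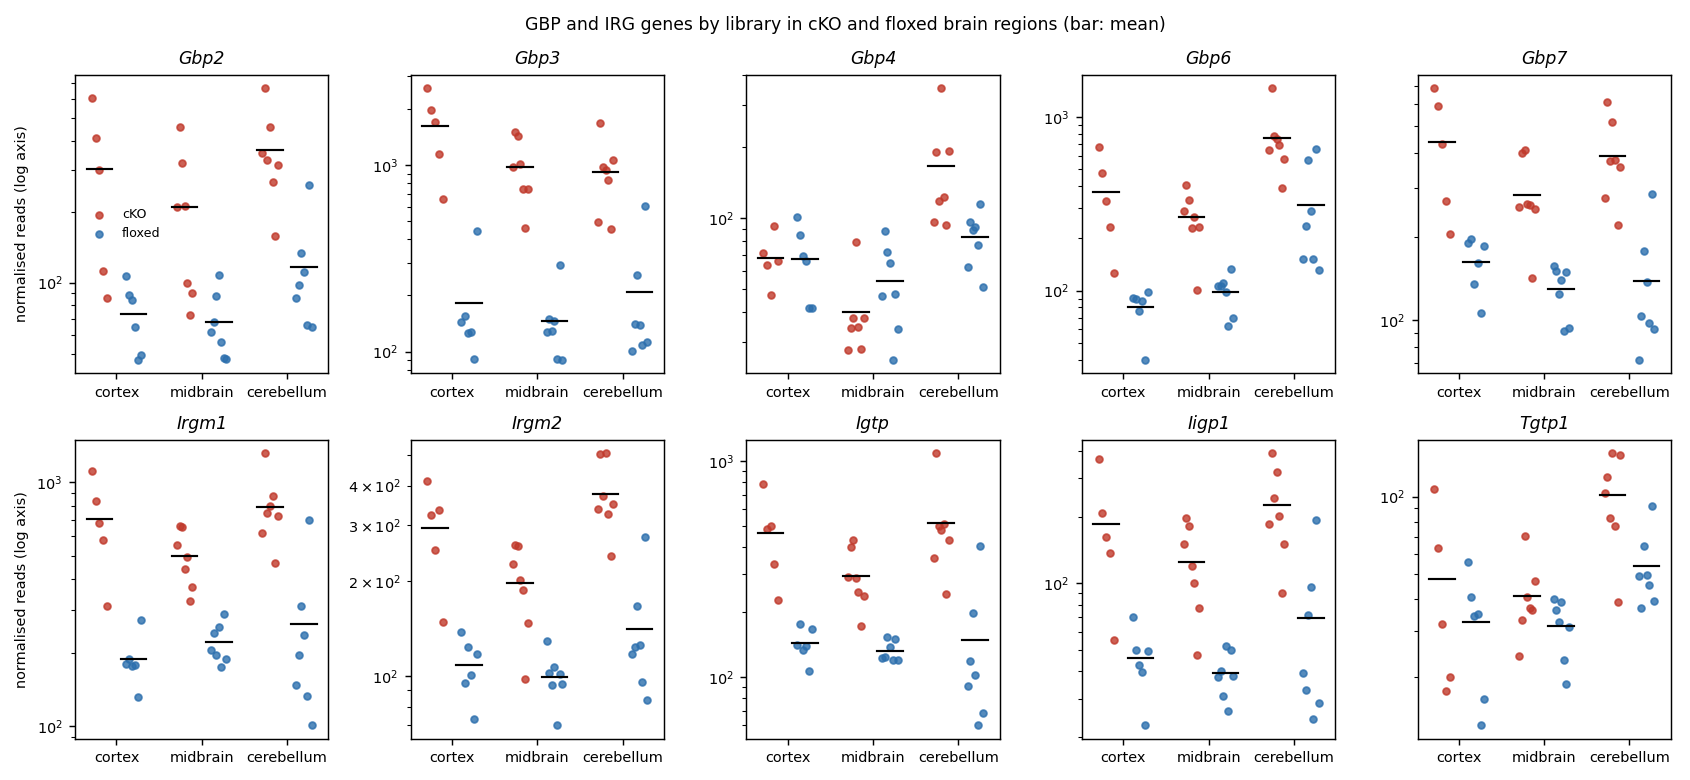
Normalised reads (log axis) of the 10 GBP and IRG genes in each library, with cKO left of floxed in cortex, midbrain and cerebellum and a bar at each group mean. The cKO libraries stand above every floxed library at 6 of the 10 genes in cortex (3.83% of all genes tested) and at 3 in midbrain (1.97%), and in cerebellum 1 floxed library lies among the cKO libraries at every gene.

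The separation of the groups differed by region. In cortex every cKO library lay above every floxed library at 6 of the 10 genes (Gbp3, Gbp6, Gbp7, Irgm1, Irgm2 and Igtp), against 3.83% of all genes tested. In midbrain this held at 3 genes (Gbp3, Irgm1 and Igtp), against 1.97% of all genes. In cerebellum it held at 0 genes, against 2.91% of all genes, and the library labelled floxed cerebellum 6 was the highest floxed library at all 10. Against the other 6 floxed libraries of cerebellum, every cKO library was higher at 6 of the 10 genes (Gbp2, Gbp3, Gbp7, Irgm1, Irgm2 and Igtp), against 10.9% of all genes, while Gbp4, Gbp6, Iigp1 and Tgtp1 still overlapped. Without the library labelled floxed cerebellum 6 limma again called 10 of 10 genes higher in cerebellum. The count was 9 without cKO cerebellum 4 and 9 without cKO cerebellum 7, with Tgtp1 lost in both runs. Without the 8 libraries that go against their sex label limma called 8, 8 and 10 genes higher in cortex, midbrain and cerebellum, and the counts were the same among the libraries with Y-linked transcripts alone.

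Gbp3, a GBP that gathers on parasite vacuoles, showed the largest fold of the 10 genes in every region. In cortex the cKO animals 2, 3, 4, 5 and 6 had 2590.7, 1987.6, 1698.5, 1153.9 and 655.0 normalised reads, against 91.2, 135.3 and 444.6 as lowest, median and highest of 6 floxed libraries. In midbrain the lowest, median and highest were 458.6, 973.8 and 1507.6 in 7 cKO libraries, against 90.2, 128.6 and 290.2 in 7 floxed libraries. In cerebellum they were 455.8, 937.9 and 1687.8 in 7 cKO libraries, against 100.8, 138.1 and 606.1 in 7 floxed libraries. The groups did not overlap in cortex and midbrain, and animal floxed 6 gave the highest floxed value in all 3 regions. Gbp3 rose by a log2 fold of 3.24 in cortex (SE 0.45, adjusted p = 0.00197), 2.75 in midbrain (SE 0.26, adjusted p = 6.99e-05) and 2.33 in cerebellum (SE 0.40, adjusted p = 0.000998). Without the libraries that go against their sex label the log2 fold was 3.90 in cortex, 3.02 in midbrain and 2.59 in cerebellum.

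Gbp2, a GBP recruited to parasite vacuoles and often used as a marker of reactive astrocytes, rose in all 3 regions, with a wide spread among cKO animals. In cortex the cKO animals 2 to 6 had 605.2, 410.9, 299.6, 111.5 and 86.1 normalised reads, against 47.0, 74.3 and 107.0 as lowest, median and highest of 6 floxed libraries. In midbrain the cKO libraries had 73.2, 209.3 and 455.5 as lowest, median and highest, against 47.5, 62.0 and 107.3 in floxed libraries. In cerebellum these values were 158.0, 330.5 and 668.4 in cKO libraries, against 64.8, 97.9 and 259.4 in floxed libraries. The groups overlapped in each region: cKO 6 in cortex and cKO 5, 6 and 7 in midbrain lay within the floxed range. The log2 fold was 1.83 in cortex (SE 0.25, adjusted p = 0.000916), 1.38 in midbrain (SE 0.21, adjusted p = 0.000586) and 1.67 in cerebellum (SE 0.31, adjusted p = 0.00148). Among cortex libraries with Y-linked transcripts, which leave out cKO 5 and cKO 6, it was 2.57.

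Gbp7, a GBP with a part in defence against bacteria and parasites, rose by a log2 fold of 1.36 in cortex (SE 0.22, adjusted p = 0.00180), 1.08 in midbrain (SE 0.16, adjusted p = 0.000477) and 1.56 in cerebellum (SE 0.30, adjusted p = 0.00160). In cortex it averaged 436.8 ± 205.6 normalised reads in cKO and 162.3 ± 35.5 in floxed libraries (SD, n = 5 and 6), and the lowest cKO value of 204.0 lay just above the highest floxed value of 195.7. Gbp6, of the GBP cluster on chromosome 5, averaged 368.0 ± 214.4 in cKO cortex and 80.2 ± 21.05 in floxed cortex (SD, n = 5 and 6). Its log2 fold was 2.08 in cortex (SE 0.28, adjusted p = 0.000880), 1.36 in midbrain (SE 0.21, adjusted p = 0.000678) and 1.44 in cerebellum (SE 0.36, adjusted p = 0.00743). In cerebellum the groups overlapped at Gbp6, since the library floxed cerebellum 3 held 568.3 and the library labelled floxed cerebellum 6 held 654.7 normalised reads, against 388.6 to 1469.8 in cKO libraries. With Gbp10, its near copy, added to it, Gbp6 gave log2 folds of 2.13, 1.41 and 1.52 in cortex, midbrain and cerebellum, again called in each.

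Gbp4, which in mouse cells has been reported to restrain the interferon factor IRF7, was the exception among the 5 GBP genes chosen here. In cortex the cKO animals 2 to 6 had 71.1, 63.3, 47.2, 92.7 and 65.9 normalised reads, against 41.8, 67.4 and 100.8 as lowest, median and highest of the floxed libraries. In midbrain the cKO libraries had 27.8, 34.7 and 79.5, against 25.2, 47.9 and 88.3 in floxed libraries. In cerebellum the cKO libraries had 93.2, 122.8 and 353.8, against 51.4, 89.4 and 115.0 in floxed libraries. The groups lay over each other in cortex and midbrain, while 5 of 7 cKO libraries of cerebellum stood above every floxed library. The log2 fold was 0.08 in cortex (95% interval -0.45 to 0.60, adjusted p = 0.842) and -0.41 in midbrain (-0.89 to 0.08, adjusted p = 0.245). In cerebellum Gbp4 rose by 0.88 (SE 0.28, adjusted p = 0.0236), but the call was lost with depth as a covariate (0.75, adjusted p = 0.101), without floxed cerebellum 1 (0.80, adjusted p = 0.0530) and without floxed cerebellum 7 (0.79, adjusted p = 0.0552). The highest value came from cKO cerebellum 4, and without that library the log2 fold was 0.68.

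The 3 regulatory IRG genes rose in every region. Irgm1, which acts at lysosomes and in the removal of damaged mitochondria, had 1109.4, 834.7, 681.8, 581.5 and 310.8 normalised reads in cortex of cKO animals 2 to 6, against 131.4, 179.0 and 271.8 as lowest, median and highest of 6 floxed libraries. In midbrain the cKO libraries had 325.1, 491.2 and 661.3 of Irgm1, against 175.1, 204.5 and 287.2 in floxed libraries. In cerebellum they had 466.7, 745.1 and 1313.1, against 100.7, 194.9 and 703.2 in floxed libraries. Every cKO library of cortex and midbrain stood above every floxed library, and in cerebellum the library labelled floxed cerebellum 6 (703.2) was more than 2 times as high as the next floxed library (311.6). The log2 fold of Irgm1 was 1.85 in cortex (SE 0.25, adjusted p = 0.00101), 1.15 in midbrain (SE 0.14, adjusted p = 0.000117) and 1.82 in cerebellum (SE 0.36, adjusted p = 0.00196). Without the library labelled floxed cerebellum 6 the cerebellum value was 2.16.

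Igtp, which sits at the endoplasmic reticulum and lipid droplets, behaved much like Irgm1. The cKO animals 2 to 6 had 784.4, 483.6, 500.3, 335.1 and 228.6 normalised reads in cortex, against 106.6, 140.6 and 177.1 as lowest, median and highest of the floxed libraries. In midbrain the cKO libraries had 173.5, 287.2 and 431.3, against 119.7, 124.2 and 152.9 in floxed libraries. In cerebellum they had 241.9, 480.7 and 1087.9, against 60.0, 102.3 and 406.3 in floxed libraries. The floxed midbrain libraries lay within a narrow band below all cKO libraries. The log2 fold was 1.62 in cortex (SE 0.21, adjusted p = 0.000638), 1.10 in midbrain (SE 0.14, adjusted p = 0.000128) and 1.95 in cerebellum (SE 0.40, adjusted p = 0.00228), and 2.31 in cerebellum without the library labelled floxed cerebellum 6. Irgm2, a Golgi-resident IRG that also restrains caspase-11 activity, rose by 1.41 in cortex (SE 0.22, adjusted p = 0.00148), 0.93 in midbrain (SE 0.15, adjusted p = 0.000616) and 1.47 in cerebellum (SE 0.23, adjusted p = 0.000800). It averaged 294.0 ± 100.5 normalised reads in cKO cortex and 108.1 ± 23.1 in floxed cortex (SD, n = 5 and 6), with a lowest cKO value of 147.9 and a highest floxed value of 138.2.

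Of the 2 effector IRG genes Iigp1 was called in every region and Tgtp1 in cerebellum alone, and the difference between them was not tested. Iigp1 had 365.0, 209.7, 163.0, 138.0 and 55.1 normalised reads in cortex of cKO animals 2 to 6, against 22.7, 46.0 and 70.0 as lowest, median and highest of 6 floxed libraries. In midbrain the cKO libraries had 47.4, 119.7 and 197.7, against 26.4, 37.9 and 52.2 in floxed libraries. In cerebellum they had 90.3, 203.1 and 388.9, against 24.1, 39.3 and 193.6 in floxed libraries. Only cKO 6 fell within the floxed range in cortex and in midbrain. Iigp1 rose by a log2 fold of 1.90 in cortex (SE 0.31, adjusted p = 0.00213), 1.54 in midbrain (SE 0.23, adjusted p = 0.000393) and 1.93 in cerebellum (SE 0.43, adjusted p = 0.00379).

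Tgtp1 had 107.0, 63.4, 32.2, 17.6 and 19.9 normalised reads in cortex of cKO animals 2 to 6, against 12.98, 34.7 and 55.8 as lowest, median and highest of 6 floxed libraries. In midbrain the cKO libraries had 24.1, 36.9 and 70.4, against 18.7, 32.6 and 40.1 in floxed libraries. In cerebellum they had 39.1, 103.7 and 147.0, against 37.0, 49.4 and 91.7 in floxed libraries. The groups overlapped in all regions, with cKO 2 and cKO 3 above every floxed library in cortex and the other 3 cKO libraries within the floxed range. The log2 fold was 0.48 in cortex (95% interval -0.11 to 1.06, adjusted p = 0.215) and 0.35 in midbrain (-0.10 to 0.80, adjusted p = 0.273). In cerebellum it was 0.86 (SE 0.29, adjusted p = 0.0304), a call that was lost with depth as a covariate (0.84, adjusted p = 0.0807), in the fit with the replicate number as a block (0.86, adjusted p = 0.0880) and when any 1 of floxed cerebellum 1, 2, 4, 5 and 7 and cKO cerebellum 1, 2, 4 and 7 was left out (0.72 to 0.85). Summed with Tgtp2, Tgtp1 was called higher in cortex as well (0.96, adjusted p = 0.0111), with 0.35 in midbrain (adjusted p = 0.111) and 1.02 in cerebellum (adjusted p = 0.0183).

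**Figure D2:**
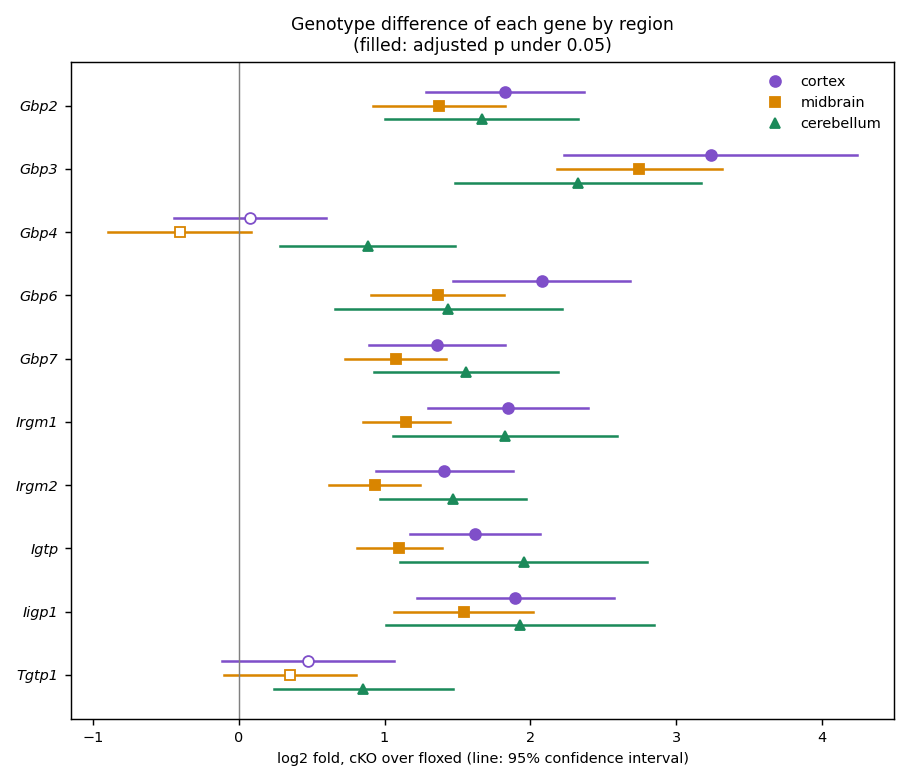
Log2 fold of cKO over floxed for each gene in cortex, midbrain and cerebellum, with 95% confidence intervals from limma and filled symbols at adjusted p under 0.05. Gbp3 lies farthest right in each region (3.24, 2.75 and 2.33), and the open symbols are Gbp4 and Tgtp1 in cortex and midbrain.

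Whether the genotype difference itself differed between regions was tested in 1 limma fit of all 39 libraries. Between midbrain and cortex 0 of the 10 genes were called, and 0 had an unadjusted p under 0.05, where 0.006% of 16659 genes tested were called in either direction. The differences ran from -0.70 for Gbp6 (95% interval -1.63 to 0.24) to -0.06 for Tgtp1 (-0.97 to 0.85), with a median of -0.48 on the log2 scale, so the fold was lower in midbrain at all 10 without passing the test. Between cerebellum and cortex 0 of 10 were called by limma, against 14.5% of all genes, and Gbp4 alone had an unadjusted p under 0.05 (0.80, SE 0.39, adjusted p = 0.171). At the other end stood Gbp3 (-0.91, SE 0.55, adjusted p = 0.289), and without animal floxed 6 that difference was called (-0.96, adjusted p = 0.0478). Between cerebellum and midbrain 1 of 10 was called, against 22.4% of all genes. It was Gbp4, with a larger difference in cerebellum by 1.29 (SE 0.37, adjusted p = 0.0102). Without animal floxed 6 the count was 4, with Igtp (1.11, adjusted p = 0.00512), Irgm1 (0.89, adjusted p = 0.0106) and Irgm2 (0.71, adjusted p = 0.0204) beside Gbp4 (1.38, adjusted p = 0.00606).

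Among floxed mice the genes showed few differences between regions. Between floxed midbrain and floxed cortex 0 of the 10 were called by limma, and 0 had an unadjusted p under 0.05, against 25.5% of all genes called in either direction. Between floxed cerebellum and floxed cortex 2 of 10 were called, against 62.5% of all genes, namely Gbp6, higher in cerebellum by 1.79 (SE 0.32, adjusted p = 7.10e-06), and Tgtp1 (0.86, SE 0.31, adjusted p = 0.0152). Between floxed cerebellum and floxed midbrain 4 of 10 were called, against 62.4% of all genes. They were Gbp6 (1.43, adjusted p = 0.000109), Tgtp1 (0.74, adjusted p = 0.0304), Gbp2 (0.68, adjusted p = 0.0419) and Gbp4 (0.68, adjusted p = 0.0223), all higher in cerebellum. This fit held no term for the animal. With the animal as a block, Gbp2 was also called against cortex (0.67, limma adjusted p = 0.0264) and Irgm2 against midbrain (0.42, limma adjusted p = 0.0346). The counts of the main fit rested in part on animal floxed 6: without it Gbp6 alone was called, at 1.70 against cortex and 1.29 against midbrain. Without animal floxed 5 the counts were 1 against cortex and 2 against midbrain, and without animal floxed 3 the count against midbrain was 2. Scaling to library totals moved the median of all genes from -0.136 to 0.142 between floxed cerebellum and floxed cortex, and 5 genes were then called, with Gbp2, Gbp4 and Irgm2 added. Gbp6 averaged 311.8 ± 213.3 normalised reads in floxed cerebellum, 98.3 ± 24.5 in floxed midbrain and 80.2 ± 21.05 in floxed cortex (SD, n = 7, 7 and 6).

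Levels were compared between genes only per kilobase of exon. In cKO cortex Gbp3 led with 505.4 normalised reads per kilobase, ahead of Irgm1 (305.3) and Igtp (230.7). Gbp6 (141.3) and Gbp2 (120.3) followed, then Irgm2 (79.7), Gbp7 (77.8) and Iigp1 (59.5), with Tgtp1 (14.98) and Gbp4 (14.3) at the end. In floxed cortex the order was Irgm1 (81.3), Igtp (71.5), Gbp3 (56.6), Gbp6 (30.8), Irgm2 (29.3), Gbp2 (29.2), Gbp7 (28.9), Iigp1 (14.6), Gbp4 (14.1) and Tgtp1 (10.2). In cKO cortex only Iigp1 and Tgtp1, and in floxed cortex only Gbp7 and Iigp1, were neighbours whose means differed by more than the SD of each. The other neighbours in both orders, the genes at the top included, differed by less than the SD of at least 1 of the pair. The places of Tgtp1 and Gbp6 are uncertain, since 81.2% and 70.7% of their 50-base windows also occur in other genes. Tgtp2, the near copy of Tgtp1, had 32.1 normalised reads per kilobase in cKO cortex.

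The spread among cKO animals was shared by the genes. In cortex, animal cKO 2 had the highest value at 9 of the 10 genes, in midbrain at 6 and in cerebellum at 7. The lowest cKO value came from cKO 5 or cKO 6, the animals with Xist expression, at 9 of 10 genes in cortex, 8 in midbrain and 10 in cerebellum. Both of them lay below all other cKO libraries at 8 genes in cortex, but at 0 in midbrain and 3 in cerebellum. The mean of log2(normalised reads + 1) over the 10 genes ran in cKO animals from 7.01 (cKO 6) to 8.93 (cKO 2) in cortex, from 6.70 (cKO 6) to 8.10 (cKO 3) in midbrain and from 7.56 (cKO 6) to 9.24 (cKO 2) in cerebellum. In floxed animals it ran from 5.80 (floxed 5) to 6.84 (floxed 1) in cortex, from 5.95 (floxed 5) to 6.67 (floxed 4) in midbrain and from 6.16 (floxed 7) to 8.20 in the library labelled floxed cerebellum 6. In that last library the cerebellum thus reached the cKO range, while cortex (6.62) and midbrain (6.58) of the same animal stayed within the floxed range.

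**Figure D3:**
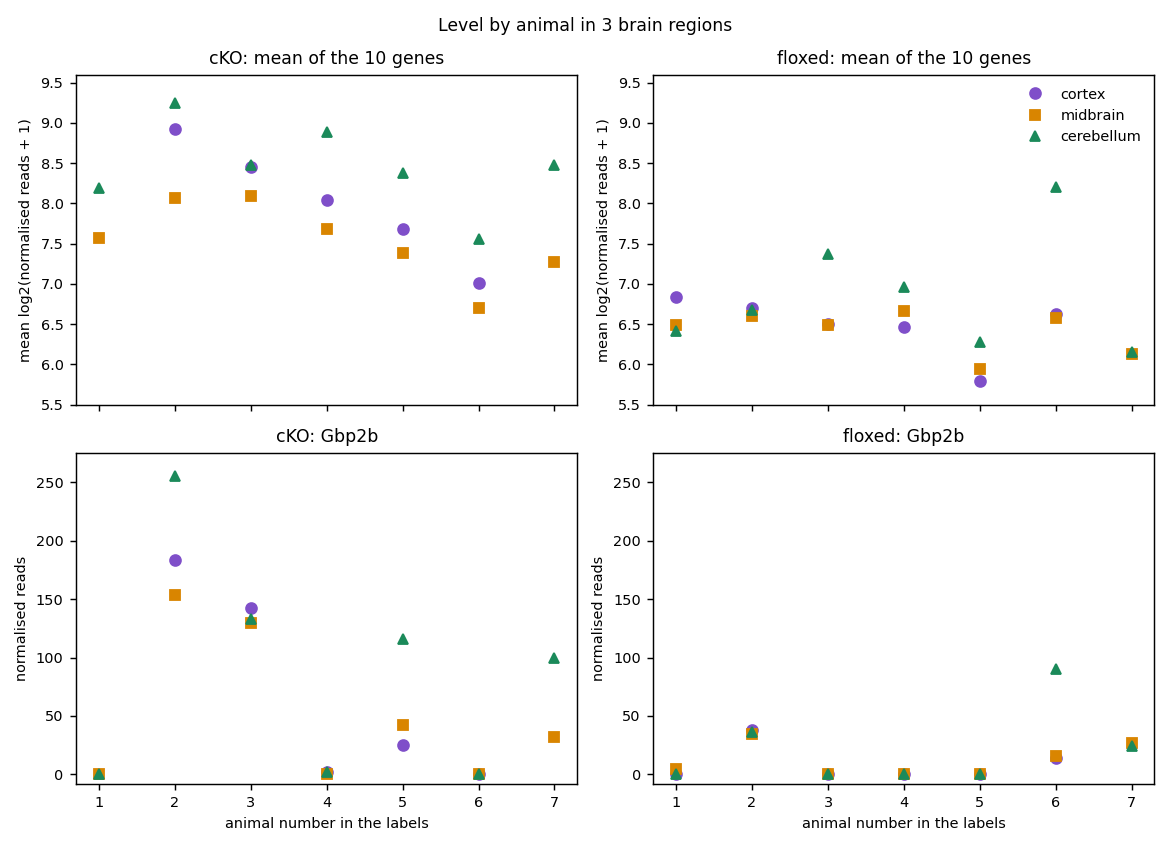
Upper panels: mean log2(normalised reads + 1) of the 10 genes by animal in cKO (left) and floxed mice (right), with a symbol for each region. Lower panels: normalised reads of Gbp2b in the same libraries. Animal cKO 6 has the lowest mean in every region, and Gbp2b is at 0 in every library of some animals and above 10 in every library of others.

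After each group's mean was subtracted, the genes varied together over the 39 libraries. The Pearson correlations of the 45 pairs of genes had a median of 0.80 and ran from 0.30 to 0.94. The pairs with Gbp4 lay between 0.30 and 0.49 and those with Tgtp1 between 0.39 and 0.69, whereas pairs of the other 8 genes lay between 0.66 and 0.94. The 8 genes outside the set whose pattern was most like the mean of the 10, among 14846 genes, were Parp14 (r = 0.954), Parp9 (0.950), Rnf213 (0.943), Eif2ak2 (0.937), Trim30a (0.936), Ifih1 (0.929), Parp12 (0.925) and Ifit1 (0.921). These are descriptions over libraries that share animals, tissue makeup and depth, and they carry no test. They include the library labelled floxed cerebellum 6, whose mean over the 10 genes lay 1.33 above that of its group. The correlations were not computed without it.

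The 16 other family genes in the table were mostly low. A fold is given for those that reached 10 normalised reads in floxed libraries as well, and ranges with no test for those that were tested mainly because their cKO libraries passed that minimum. Gbp5, a GBP that promotes assembly of the NLRP3 inflammasome, rose by a log2 fold of 1.08 in cortex, 0.69 in midbrain and 0.91 in cerebellum. Gbp9 rose in cortex (0.88) and cerebellum (1.78), with 0.37 in midbrain (adjusted p = 0.0528). Tgtp2 rose in cortex (1.25) and cerebellum (1.13), with 0.19 in midbrain (adjusted p = 0.776). The cerebellum call of Tgtp2 was lost without cKO cerebellum 4 (0.91, adjusted p = 0.0757), as was that of 9930111J21Rik1 (0.73 in all libraries, 0.72 without that library, adjusted p = 0.0707), and both were also lost without cKO cerebellum 7. Irgq was lower in cerebellum (-0.42, SE 0.12, adjusted p = 0.0143). Gbp11 was not called in cortex (-0.18) or midbrain (-0.37), nor was Irgc1 in cortex (-0.33), the only region where it could be tested.

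Gm12250 (also Irgb10), an IRG that helps to break open bacteria, lay between 10.1 and 63.2 normalised reads in cKO cortex and between 0 and 13.7 in floxed cortex. Gm4951, another gene of the IRG family, lay between 21.3 and 170.4 in cKO cortex and between 1.07 and 11.8 in floxed cortex. In cerebellum F830016B08Rik lay between 12.0 and 42.7 in cKO libraries and between 0 and 15.4 in floxed libraries, and Gm5431 between 6.01 and 46.5 in cKO and between 2.13 and 20.8 in floxed libraries. Gbp10 lay between 59.7 and 271.2 in cKO cerebellum and between 5.90 and 85.7 in floxed cerebellum. Each of these genes is shown in a single region, and they passed the minimum mainly through cKO libraries, so no result is read from the ranges. The groups did not overlap at Gm4951 in cortex, against 3.83% of all genes tested there, but they overlapped in midbrain and cerebellum. At F830016B08Rik they overlapped in cortex and cerebellum and not in midbrain. Gbp8 exceeded 10 only in cKO cerebellum (4.50 to 40.3), and Gm4841 and 9930111J21Rik2 reached at most 15.2 and 25.9 normalised reads in a compared library. The genotype difference was larger in cerebellum than in midbrain at Gbp9 (1.41, adjusted p = 0.00357), which overlaps Gbp4 on chromosome 5, and so it was without animal floxed 6 (1.66) and without animal cKO 4 (1.32). The same difference at Gbp11 (0.94, adjusted p = 0.0389) was lost without animal cKO 7 (0.91, adjusted p = 0.0663), as was that at Irgq (-0.35, and -0.31 without cKO 7, adjusted p = 0.0771).

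Gbp2b, the nearest relative of Gbp2, was near 0 in some animals of each genotype and above 10 normalised reads in others. It held 153.8 to 255.8 normalised reads in the 3 libraries of cKO 2, 129.7 to 142.8 in cKO 3, 25.0 to 115.8 in cKO 5 and 31.9 to 99.5 in cKO 7, while cKO 1 and cKO 6 were at 0 and cKO 4 reached 1.77. Among floxed animals, floxed 2 held 34.6 to 38.1, floxed 6 held 13.8 to 89.8 and floxed 7 held 14.5 to 26.3, while floxed 3 was at 0 and floxed 1, 4 and 5 reached at most 4.35. The 14.5 came from the floxed library that could not be placed in a region. Every animal thus stood on 1 side of 10 normalised reads in all of its libraries. Among the animals above 10, cKO and floxed values overlapped in cortex and midbrain. They did not overlap in cerebellum (99.5 to 255.8 in cKO, 24.5 to 89.8 in floxed), and this difference was not tested. Gbp2b was not called in any region (log2 fold 2.62, 1.11 and 1.93, adjusted p = 0.244, 0.661 and 0.341).

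The interferon gamma pathway upstream of these genes was taken as a list of 13 genes, of which 11 were tested. In cortex 5 rose and 1 fell, in midbrain 6 rose and 0 fell, and in cerebellum 5 rose and 2 fell, with median log2 folds of 0.47, 0.26 and 0.55. Of all genes tested, 10.5%, 8.48% and 19.4% were called higher in cortex, midbrain and cerebellum. Those called lower were 2037 of 15731, 1194 of 15683 and 3012 of 15334. Irf1, an early target of interferon gamma and itself an activator of GBP genes, rose by 0.64 in cortex, 0.47 in midbrain and 1.39 in cerebellum, Irf8, a factor of myeloid cells, by 1.12, 0.83 and 2.23, and Nlrc5, the regulator of class I antigen genes, by 2.14, 1.69 and 2.73. The receptor subunit gene Ifngr2 was lower in cerebellum (-0.51, adjusted p = 0.000870). Ifng itself, the gene for interferon gamma, was at 0 in most of the compared libraries and nowhere above 1.98 normalised reads, too low to be tested.

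Of 16 genes of the type I interferon pathway, 10 were tested, and 6 rose in cortex, 4 in midbrain and 7 in cerebellum, with none lower. The shares called higher over all genes were 10.5%, 8.48% and 19.4%. Usp18, which removes the modifier ISG15 and damps receptor signalling, rose by 3.38, 2.62 and 2.76 in cortex, midbrain and cerebellum. Irf7, the factor that amplifies interferon production, rose by 3.63, 2.47 and 2.94, and Irf9, a subunit of the factor that binds the ISRE, by 1.47, 1.07 and 1.28. Irf3 rose in cortex (0.38) and cerebellum (0.61), with 0.16 in midbrain (adjusted p = 0.0972). Ifnb1, the gene for interferon beta, was at or below 0.956 normalised reads in every library. Among other interferon-induced GTPases, the antiviral gene Mx2 rose by 2.26, 1.56 and 2.43. Its neighbour Mx1 lay between 44.7 and 247.3 normalised reads in cKO cortex and between 2.25 and 19.6 in floxed cortex, and it passed the minimum mainly through cKO libraries.

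Of 18 genes for proteins that act with GBPs and IRGs, 6 rose in cortex, 4 in midbrain and 4 in cerebellum, where 1 fell, and the median log2 folds were 0.07, 0.06 and 0.10. Most of these partner genes therefore did not pass the test, and without the library labelled floxed cerebellum 6 the count in cerebellum was 6. Over all genes tested, 10.5%, 8.48% and 19.4% were called higher in the 3 regions, so the cerebellum count of 4 of 18 was near that share. Partner genes that rose included Bst2, a membrane tether of viruses (3.21, 2.39 and 2.56), Rnf213, a ubiquitin ligase that marks bacteria (1.86, 1.39 and 1.88), and Trim21, an antibody receptor of the cytosol (1.05, 0.52 and 1.12). Inflammasome and pyroptosis genes, which GBPs engage downstream, rose at 6 of 9 tested in cortex, 4 of 8 in midbrain and 8 of 9 in cerebellum, although Casp4 in cortex and Casp4 and Nlrp3 in cerebellum passed the minimum mainly through cKO libraries, as did the sensor gene Zbp1 in each region. Among them Gsdmd, which forms membrane pores, rose by 0.86, 0.67 and 1.80, Pycard, the inflammasome adaptor, by 1.09, 0.93 and 1.54, Naip5, a sensor of flagellin, by 1.39, 0.80 and 2.22, and Casp8 by 0.79, 0.56 and 1.35. Of 8 sensor genes upstream of interferon 4 rose in cortex, 4 in midbrain and 7 in cerebellum, among them the RNA sensors Ddx58 (1.68, 1.52 and 2.17) and Ifih1 (1.399, 1.17 and 1.21) and the DNA sensing adaptor Tmem173, known as STING (0.86, 0.42 and 1.74).

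Cell type markers moved with the genotype beside these genes. Of 10 microglia markers, 9 were higher and 1 lower in cKO cortex, 8 higher and 1 lower in cKO midbrain and 10 higher in cKO cerebellum, with median log2 folds of 0.64, 0.55 and 1.61. The lower gene in cortex and midbrain was P2ry12, a receptor of resting microglia (-0.38 and -0.35). Their summed level ran from 10826 to 23755 normalised reads in cKO cortex and from 9097 to 13271 in floxed cortex. It ran from 8899 to 16641 in cKO midbrain and from 7450 to 10584 in floxed midbrain, and from 9493 to 24112 in cKO cerebellum and from 2813 to 11520 in floxed cerebellum. The highest floxed sum in cerebellum was that of the library labelled floxed cerebellum 6. Of 6 border macrophage markers 1 was higher in cKO cortex, 4 in cKO midbrain and 6 in cKO cerebellum. Of 6 meningeal fibroblast markers 5, 2 and 5 were higher. The shares of all genes tested that were called higher were 10.5% in cortex, 8.48% in midbrain and 19.4% in cerebellum. None of the markers in these 3 lists was at 0 throughout a region. The part of these cells in the GBP and IRG values was not tested. Without the library labelled floxed cerebellum 6, 10 microglia, 6 border macrophage and 6 fibroblast markers were higher in cKO cerebellum.

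**Figure D4:**
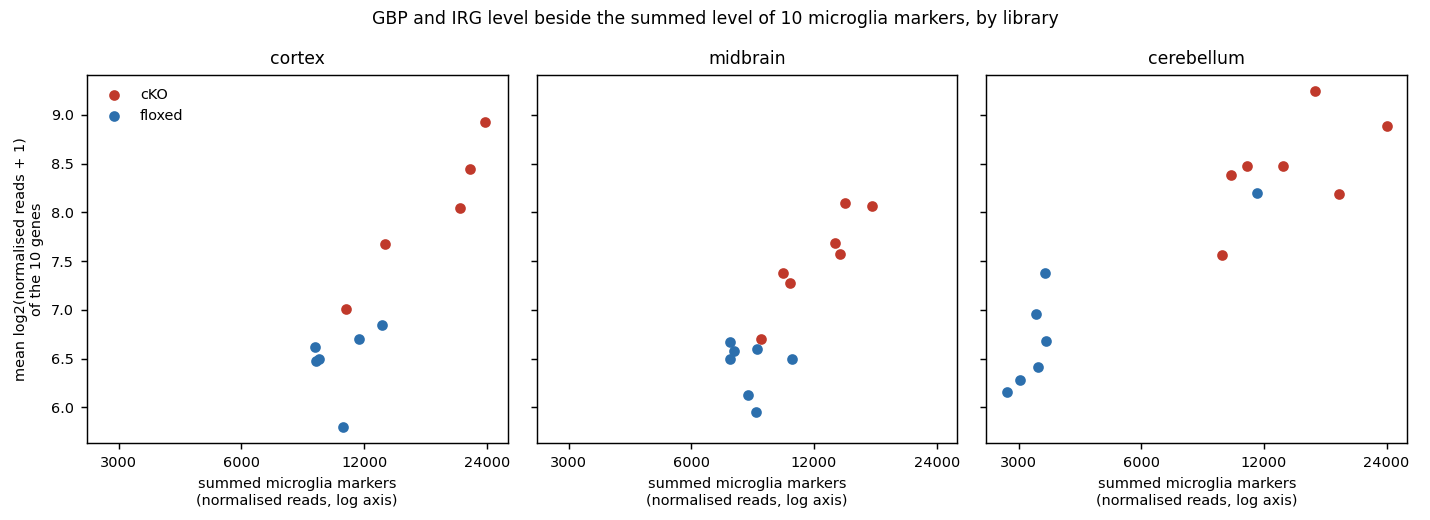
Mean log2(normalised reads + 1) of the 10 GBP and IRG genes against the summed normalised reads of 10 microglia markers (log axis), with a point for each cKO and floxed library in cortex, midbrain and cerebellum. The cKO sums run from 10826 to 23755 in cortex, from 8899 to 16641 in midbrain and from 9493 to 24112 in cerebellum, where 1 floxed library (sum 11520) lies among the cKO libraries.

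T and NK cells are the main makers of interferon gamma. Of 13 markers of T, NK and B cells in the table, 10 stayed under 10 normalised reads in every library of cortex, 11 in midbrain and 5 in cerebellum, and 2 could be tested in each region. Cd4, which microglia can also express, was higher in cKO midbrain (1.08, adjusted p = 0.0137). In cerebellum it reached 10 normalised reads in 6 of 7 cKO libraries and 1 of 7 floxed libraries. Cd79a was called in no region. The summed level of the 13 ran from 469.9 to 698.9 normalised reads in cKO cortex and from 494.3 to 892.0 in floxed cortex. It ran from 82.4 to 226.1 in cKO midbrain and from 66.8 to 122.0 in floxed midbrain, and from 45.2 to 327.2 in cKO cerebellum and from 22.9 to 52.5 in floxed cerebellum. In cortex most of this sum came from the few markers that reached 10 normalised reads, so it is not read as a level of these cells there. Of 7 monocyte and neutrophil markers, 2 were tested in cortex, 0 in midbrain and 3 in cerebellum. In cKO cortex 1 was higher, and in cKO cerebellum 1. Of 10 astrocyte markers 1 was higher, Gfap, whose promoter drives Cre here (2.31, 1.25 and 2.55 in cortex, midbrain and cerebellum), and 4, 6 and 4 were lower. In cKO cerebellum 4 of 6 neuron markers were lower. Among all genes tested, 2037 of 15731 were called lower in cortex, 1194 of 15683 in midbrain and 3012 of 15334 in cerebellum. All 5 choroid plexus markers were lower in cKO midbrain, where they summed to 8317 to 21116 normalised reads, against 15406 to 35438 in floxed midbrain. The 6 midbrain markers summed to 1464 to 7517 in cKO cerebellum, against 4237 in the library labelled floxed cerebellum 6 and 535 to 869 in the other floxed libraries of cerebellum. Only 3 of these 6 markers were tested in cerebellum and 1 was called higher, with a median log2 fold of 0.10, while 2 stayed under 10 normalised reads throughout. The part of these differences in the GBP and IRG values was not tested. Of 8 endothelial markers 5 were lower in cKO midbrain.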

How the data were processed

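Polyadenylated RNA from single brain regions was sequenced as paired reads, with a library kit that does not mark strand. STAR, Salmon, DESeq2 and mm10 are named in the submitters' processing notes, without versions. The deposited signal values are described as raw counts, but the values are not whole numbers and their low values fall in steps that differ between libraries. They were therefore taken as counts that the authors had scaled per library, and limma on log2(value + 1) replaced the planned edgeR test. Of 24972 entries, 26 whose names had turned into dates (at most 0.351% of a library) were left out. Genes with at least 10 normalised reads in as many libraries as the smaller group had were tested with limma (limma 3.58.1, R 4.3.3, with trend and robust variance), with labelled sex as covariate. Tests between regions fitted all 39 compared libraries together, without a term for the animal. P-values were Benjamini-Hochberg adjusted over all genes tested in a comparison, with a threshold of 0.05. The exact permutation tests used numpy 2.4.6 and the figures matplotlib 3.10.9, under Python 3.11.15. The fits were tested on simulated data.

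The 10 genes and every other gene list were chosen with earlier results of these data known. All 10 genes are named in each comparison of cKO with floxed tissue, and some of them in the comparisons between regions. Every family relative in the table is named, but not in every comparison. From each other list up to 4 genes with the lowest p in any region are named, together with Ifng, Irf1, Ifnb1 and Yy1, and the 8 genes outside the set most like its mean. P2ry12 was named after its values were seen, and 1 gene that the rule names is not reported here. Gene positions and shared windows came from GENCODE vM21, in which 97.9% of gene names matched 1 gene. Replicates are separate animals and regions share animals: residuals of 36 pairs of regions from the same animal correlated by -0.079 to 0.551, over 0.1 in 32. There were 2 libraries, 1 of cKO and 1 of floxed tissue, that could not be placed in a region from their labels and that entered no comparison.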

Additional observations from a re-analysis of the deposited data

Results flagged for a closer look

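Of 60 groups of values (10 genes in 6 groups of libraries), 4 held a library far from the rest by Dixon's test at 95%, which chance alone gives in about 1 in 20 groups. Gbp3 was at 444.6 normalised reads in floxed cortex 6, the highest floxed value. Gbp4 was at 79.5 in cKO midbrain 4, the highest cKO value there. Gbp6 was at 101.2 in cKO midbrain 6 and at 39.9 in floxed cortex 5, each the lowest of its group. The genotype difference of Gbp4 was larger in cerebellum than in midbrain, by 1.29 on the log2 scale (limma, adjusted p = 0.0102).

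Outside the comparisons, the cKO library that could not be placed in a region stood above the unplaced floxed library and above every floxed library of cortex and midbrain at all 10 genes. It held 1310.8 normalised reads of Gbp3, 160.9 of Gbp2, 108.2 of Gbp4, 424.5 of Gbp6 and 415.0 of Gbp7. It held 643.9 of Irgm1, 319.5 of Irgm2, 458.8 of Igtp, 179.7 of Iigp1 and 92.8 of Tgtp1. These are values of 1 library, and no test was made on them.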

How the results depend on the processing

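In cortex and midbrain the 8 genes called higher were called under every alternative run. Of 259 values of single genes in cortex, 250 kept their direction and side of the threshold, 2 passed it only under an alternative (Tgtp1, at 0.85 with array weights and 0.96 with Tgtp2 added) and 7 changed sign. All 288 values in midbrain and 276 of 290 in cerebellum kept both, and the other 14 were lost calls of Gbp4 and Tgtp1. All changes of sign were at Gbp4 in cortex: -0.08 with the Xist level as covariate, -0.12 with depth, -0.40 without libraries against their sex label, -0.10 in libraries with Y-linked transcripts, and -0.11 to 0.25 over single libraries left out. The count of all genes higher in cortex was 1656, and 1045 without the sex covariate, 1035 with the Xist level, 995 in libraries with Y-linked transcripts and 1213 to 1677 over single libraries left out. In midbrain it was 1330, and 430 with depth as covariate, 533 in a fit of all 6 groups and 1004 to 1530 over libraries left out. In cerebellum it was 2968, and 2403 to 3194 over libraries left out, with 8 to 10 of the 10 genes called. The causes of these shifts were not tested.

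Between regions, without the animals against their sex label, 6 of all genes were called for midbrain against cortex (1 in all animals, 1 to 6 over single animals left out). The same alternative called 1 of the 10 genes lower for cerebellum against cortex (0 to 1 over animals left out) and 2 higher for cerebellum against midbrain (1 to 4). Counts over all genes ran from 1513 to 3156 for cerebellum against cortex and from 2763 to 4571 for cerebellum against midbrain over animals left out. Tgtp1 for midbrain against cortex was 0.007 without those animals and ran from -0.28 to 0.33 over animals left out. Floxed cerebellum against floxed cortex had 5 genes higher when scaled to totals, 1 without the animals against their sex label and 1 to 3 over animals left out. Floxed cerebellum against floxed midbrain had 2 without the sex covariate, 1 without those animals and 1 to 5 over animals left out. Igtp there was 0.049 when scaled to totals and ran from -0.39 to 0.013 over animals left out.

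With the replicate number as a block, 664 genes were higher in cortex. The number did not pair the genotypes: of 19 pairs with the same number 4 correlated by over 0.1, and they ran from -0.318 to 0.216. With the animal as a block across regions (consensus correlation 0.194), 2 of all genes were called for midbrain against cortex.

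Depth limits Ifng, Ifnb1 and the rarer relatives, which lay near the value of 1 read. Groups below 10 normalised reads entered a test where the other group passed that minimum.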
